A study of Mus musculus with 6 samples.

Results

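The Treg genes Foxp3, Il2ra, Ctla4, Ikzf2, Tnfrsf18, Tnfrsf4, Tigit and Icos are 8 of the 34099 genes counted by single-cell RNA-sequencing (scRNA-seq) in mouse liver tumors, and were chosen by name as genes that mark regulatory T (Treg) cells. Tumors came from 3 control and 3 stress mice, all young adult male C57BL/6J animals labelled wild type, in which H22, a murine hepatocellular carcinoma (HCC) line, had been transplanted into the liver. Stress mice went through chronic unpredictable mild stress before the transplant and control mice were kept in standard housing, so both groups carried H22 tumors and no tumor-free liver is included. Each mouse gave 1 10x Genomics library, and the levels, the cells with a unique molecular identifier (UMI, 1 counted transcript) and the co-detection of the 8 genes were taken from the class annotated NK/T cells (natural killer and T lymphocytes) and from the other 9 annotated classes. H22 is a single transplanted line, so all tumors share 1 source of tumor cells.

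Treg cells are CD4 T cells that restrain other immune cells and are common in solid tumors. Foxp3 encodes the transcription factor that defines them, and Ikzf2 encodes Helios, a zinc-finger factor found in many Treg cells. Il2ra encodes CD25, the subunit that gives the IL-2 receptor its high affinity, through which STAT5 supports Foxp3 expression. Ctla4 and Tigit encode inhibitory receptors, whereas Icos, Tnfrsf4 (OX40) and Tnfrsf18 (GITR) encode costimulatory receptors. Other T cells also express these receptors after activation, so among the 8 genes Foxp3 is the one most closely tied to the lineage.

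In GENCODE M21 (GRCm38), Foxp3 lies at chrX:7573644-7595245, Il2ra at chr2:11642807-11693193, Ctla4 at chr1:60887000-60915832 and Icos at chr1:60977927-61000320, all on the plus strand. Ikzf2 lies at chr1:69531214-69687245 and Tigit at chr16:43648867-43664146, both on the minus strand. Tnfrsf4, at chr4:156013843-156016612, and Tnfrsf18, at chr4:156026164-156028895, are plus-strand neighbors with 9551 bases between them, and 62094 bases separate Ctla4 from Icos, with no other gene start of a coding gene in either gap. Foxp3 overlaps Flicr on its own strand and Ppp1r3f, Gm36995 and Ccdc22 on the other, and Tnfrsf18 overlaps the antisense gene Gm16008. Reads of overlapping genes could not be assigned with certainty from the deposited counts, with the counting settings not given in the sources used here.

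Sequence upstream of the start was in the RefSeq table (GRCm38.p6) for 6 of the 8 genes, all but Ikzf2 and Icos, in 7 windows of 250 bases, as Foxp3 had 2 starts. The 4 windows without annotated UTR are shown, because they are where factors of T cell activation and the IL-2 pathway could bind upstream of the genes followed below. Each reads 5′ to 3′ on the gene's strand, and capitals mark matches, on either strand, to a STAT5 motif (TTCNNNGAA), an NFAT motif (GGAAA) or a RUNX motif (TGTGGT). The windows are chrX:7580233-7580482 (Foxp3, the second start, overlapping an exon of Flicr), chr2:11642542-11642791 (Il2ra), chr1:60908775-60909024 (Ctla4), and chr16:43664185-43664434 on the minus strand (Tigit).
Foxp3: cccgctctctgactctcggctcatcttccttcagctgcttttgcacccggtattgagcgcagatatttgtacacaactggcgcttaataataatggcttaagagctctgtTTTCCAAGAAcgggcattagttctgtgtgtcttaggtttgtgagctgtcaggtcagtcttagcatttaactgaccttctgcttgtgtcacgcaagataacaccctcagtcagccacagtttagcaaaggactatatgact
Il2ra: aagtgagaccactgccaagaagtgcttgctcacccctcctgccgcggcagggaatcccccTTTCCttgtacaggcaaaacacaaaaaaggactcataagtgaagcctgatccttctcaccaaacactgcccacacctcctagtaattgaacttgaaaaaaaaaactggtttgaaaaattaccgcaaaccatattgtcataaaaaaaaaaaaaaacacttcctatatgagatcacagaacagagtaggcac
Ctla4: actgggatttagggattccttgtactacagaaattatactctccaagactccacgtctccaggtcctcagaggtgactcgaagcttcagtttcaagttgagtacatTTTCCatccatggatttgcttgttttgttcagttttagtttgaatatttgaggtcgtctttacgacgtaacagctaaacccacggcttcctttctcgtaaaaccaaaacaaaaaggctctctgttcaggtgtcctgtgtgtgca
Tigit: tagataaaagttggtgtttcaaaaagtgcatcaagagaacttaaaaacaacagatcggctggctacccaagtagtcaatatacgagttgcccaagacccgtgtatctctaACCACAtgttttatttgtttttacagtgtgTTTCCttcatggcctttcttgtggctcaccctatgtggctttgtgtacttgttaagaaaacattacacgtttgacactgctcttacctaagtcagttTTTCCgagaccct

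The STAT5 motif was found in 2 of the 7 member windows, those of the second Foxp3 start and of Tnfrsf18, and in 7.02% of the 32851 windows of the table. In the Foxp3 window the match ran from base -139 to -131 and overlapped an NFAT match at -140 to -136. The NFAT motif, which is short, was in 7 of 7 member windows and in 55.6% of all windows. The RUNX motif was in the Tigit window alone among the 7, against 14% of all windows. No member window held the forkhead motif TGTTTAC (3.17% of all windows), a 10-base NF-kB motif (0.98%) or the AP-1 motif TGANTCA (6.75%).

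The 6 libraries held 7239 to 11752 annotated cells, 58794 in all, with median depths of 7166 to 20478 UMIs per cell, and 13 to 40 cell barcodes were shared by each pair of libraries. Cell Ranger 9.0.0 produced every control matrix and 7.1.0 every stress matrix, so the software version and the group cannot be told apart in any comparison of stress with control below. NK/T cells were a single cluster of 2490 cells, with 93, 674 and 126 in the control mice and 269, 814 and 514 in the stress mice. Of them, 98.1% held a UMI of at least 1 of 6 T cell receptor or CD3 genes, 64.1% one of 7 NK genes and 18.8% one of 4 tumor markers, so T cell genes were nearly always detected in the class. A UMI of the 7 NK genes was also in 49.4% of tumor cells, which are deeper. How many NK cells the class holds was not tested. The p-values below take the mouse, with 1 library each, as the unit. Where stress is compared with control within a class, they are taken against the spread between mice. In fits with the mouse as a block, they are taken against the spread over mice of the difference within a mouse. In the edgeR fits below, either spread is estimated with information shared across all genes tested. A very small p there does not rest on the spread of 1 gene over the mice alone.

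All 8 genes had their highest mean level in NK/T cells among the 8 classes with at least 10 cells in every mouse. Levels are given as UMIs of the gene per 1e+06 UMIs of the class in a mouse (CPM). Foxp3 was at 7.62 ± 4.16 CPM (SD, n = 6 mice) in NK/T cells, next to 0.389 CPM in monocytes, and was listed at 0 in dendritic cells (DCs), B cells and monocytic myeloid-derived suppressor cells (M-MDSCs). Icos stood at 275 ± 41.1 CPM in NK/T cells and at 6.38 CPM in DCs, the next class. Tigit was at 45.9 ± 8.12 CPM against 2.59 CPM in B cells.

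The TNF receptor genes Tnfrsf4 and Tnfrsf18 were at 210 ± 69.1 and 128 ± 33.7 CPM in NK/T cells, and DCs came next for both, at 19.1 and 20.8 CPM. Ikzf2 was at 269 ± 71.8 CPM, with endothelial cells (ECs) next at 29.6 CPM. Ctla4 was at 552 ± 84.7 CPM, with B cells next at 116 CPM. For each of these genes and for Foxp3, Icos and Tigit, the lowest mouse in NK/T cells lay above the highest mouse of the next class. For Foxp3 these values were 2.32 CPM, from 1 of the 126 NK/T cells of control 3, and 1.92 CPM in monocytes. The order of these 2 values thus rests on very few counts. For Il2ra the order was less sharp: NK/T cells were at 36 ± 16.6 CPM and DCs at 9.05 ± 7.36 CPM, and the lowest NK/T value, 16.3 CPM, lay below the highest DC value, 18.0 CPM.

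Below B cells, the order of the classes by Ctla4 was not sharp over the 6 mice: its means lay between 26.7 and 51.8 CPM in DCs, tumor cells, M-MDSCs, monocytes, ECs and inflammatory myeloid cells, with overlapping ranges over mice of both groups. Within groups the ranges were narrower: in control mice, Ctla4 was at 62.6 to 82.8 CPM in tumor cells and 65.4 to 85.1 CPM in M-MDSCs, above the 37.7 to 49.2 CPM of ECs and the 43.3 to 59.5 CPM of monocytes, and in stress mice ECs, at 13.5 to 18.9 CPM, lay below monocytes, at 21.1 to 33.8 CPM. Of 2 genes, Ctla4 and Tigit, tumor cells held more of the UMIs than NK/T cells did. They held 74.3% of all Ctla4 UMIs, against 16.4% in NK/T cells, with 29638 tumor cells at a median of 27716 UMIs each. They held 55.7% of Tigit UMIs, against 36.04% in NK/T cells, at a Tigit level of 1.46 CPM. For the other 6 genes NK/T cells held between 60.1% (Tnfrsf18) and 82.8% (Icos) of the UMIs, with 66.8% for Foxp3. These class levels are descriptions, and no test was made between classes.

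**Figure D1:**
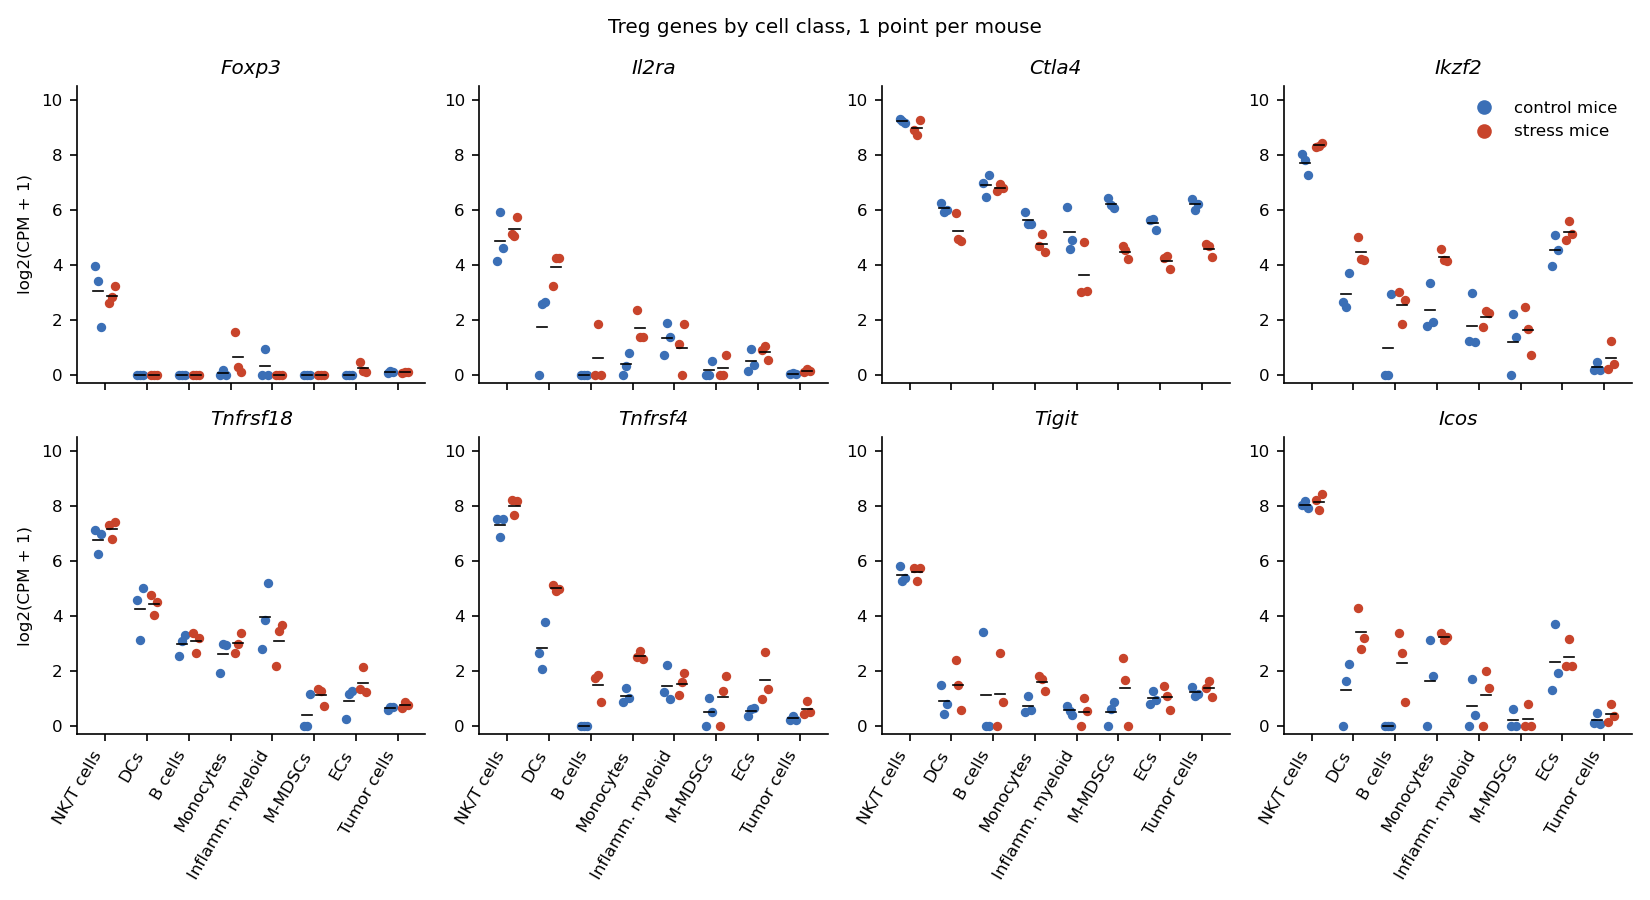
Level of each Treg gene as log2(CPM + 1), one point per mouse, in the 8 classes with at least 10 cells in every mouse; control mice are blue, stress mice red, and black lines are group means. NK/T cells lead every panel, and Ctla4 is the gene with a level well above 0 in all 8 classes.

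Foxp3 itself was sparse. A Foxp3 UMI was found in 80 of 2490 NK/T cells (3.21%), of which 45 held 1 UMI, 23 held 2 and 12 held 3 to 5. At a similar median depth (4538 UMIs against 4403 in NK/T cells), 3 of 11433 ECs held one (0.0262%). In tumor cells, which are deeper, 46 of 29638 cells held a Foxp3 UMI (0.155%). Monocytes had 7 such cells, inflammatory myeloid cells 1 and HSCs 1, and 5 of the 7 monocytes also held a T cell receptor or CD3 UMI. Of the 46 tumor cells, 12 held a T cell receptor or CD3 UMI (26.1%, against 9.08% of the other tumor cells). Of the same 46 cells, 2 held at least 4 of the other 7 Treg genes. No Foxp3 UMI was seen in 1556 DCs, which allows a share of up to 0.193%. The same held for 457 B cells (up to 0.656%) and 350 M-MDSCs (up to 0.857%). These limits are shares of 3 counts and cover counting error only.

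The other 7 genes were detected more often in NK/T cells with a Foxp3 UMI (Foxp3+) than in those without (Foxp3-). Among Foxp3+ cells, 95% held a Tnfrsf4 UMI, 93.8% an Ikzf2 UMI and 65% an Il2ra UMI, against 36.6%, 40.6% and 13.1% of Foxp3- cells. Foxp3+ cells were deeper, with a median of 5448.5 UMIs against 4382.5, so every cell was also thinned to 1000 UMIs, which left out 22 shallower cells, all of them Foxp3-. At that depth Tnfrsf4 was found in 71.2% (95% exact interval 60.05 to 80.8) of Foxp3+ and 15.5% of Foxp3- cells, Ikzf2 in 76.2% (65.4 to 85.1) and 18.6%, and Il2ra in 26.2% (17.04 to 37.3) and 3.18%. Over pooled cells the separation held at equal depth for these 3 genes. By mouse, the thinned share was higher in Foxp3+ cells in 6 of 6 mice for Tnfrsf4 and Ikzf2 and in 5 of 6 for Il2ra, with Il2ra in 0 of 8 Foxp3+ and 14 of 259 Foxp3- cells of stress 1, and thinned Il2ra was too low for the fit across mice.

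Ctla4 was found in 80.0% of thinned Foxp3+ cells and 41.4% of Foxp3- cells, Tnfrsf18 in 53.8% and 13.1%, Icos in 52.5% and 28.4%, and Tigit in 16.2% and 6.28%. These thinned shares were higher in Foxp3+ cells in 5 of 6 mice for Ctla4, Tnfrsf18 and Icos and in 4 of 6 for Tigit. Without thinning, Ctla4 was in 96.2% and 78.3%, Tnfrsf18 in 85.0% and 42.8%, Icos in 90.0% and 64.1%, and Tigit in 47.5% and 24.8%. At full depth Ctla4 and Icos were thus detected in most NK/T cells whether or not Foxp3 was, but after thinning in only 41.4% and 28.4% of Foxp3- cells. A median of 6 of the 7 other genes was detected in Foxp3+ cells and of 3 in Foxp3- cells, and after thinning of 4 and 1. All 80 Foxp3+ cells held at least 3 of the 7, and 21 held all 7.

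**Figure D2:**
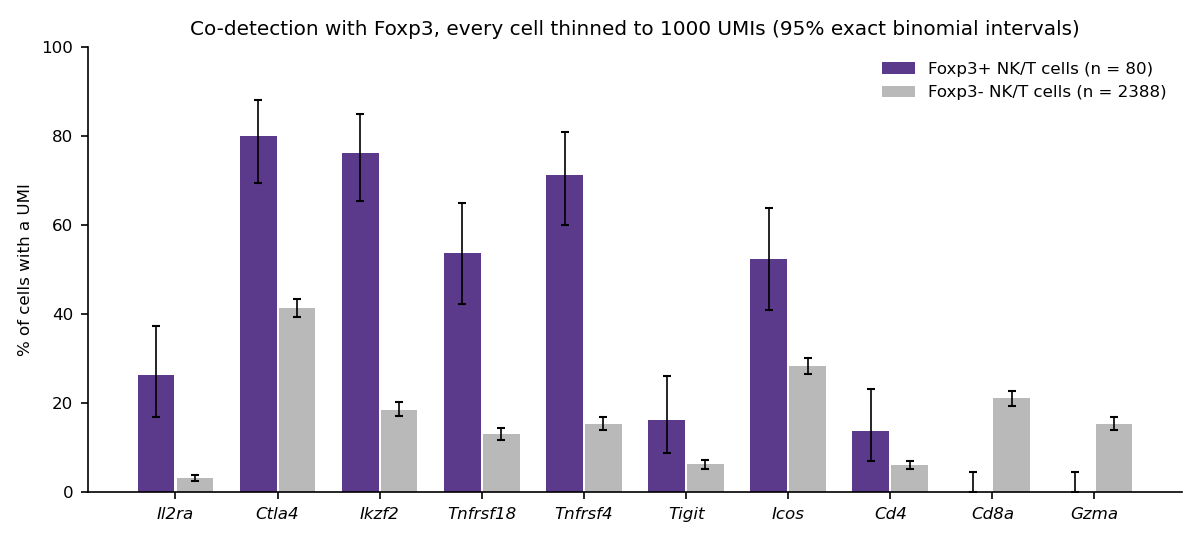
Percent of Foxp3+ (n = 80, purple) and Foxp3- (n = 2388, grey) NK/T cells with a UMI of each gene after thinning to 1000 UMIs per cell; bars start at 0 and lines are 95% exact binomial intervals, which cover counting error over pooled cells only. Over pooled cells the 7 Treg genes and Cd4 are higher in Foxp3+ cells, whereas Cd8a and Gzma were found in 0 of the 80, where 3 counts would be 3.75%. By mouse, the thinned share was higher in Foxp3+ cells in 3 of 6 mice for Cd4 and in 4 of 6 for Tigit.

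Lineage genes also differed over the pooled cells. Without thinning, Cd4 was detected in 43.8% of Foxp3+ and 15.4% of Foxp3- cells, and a Cd8a or Cd8b1 UMI, the CD8 subunits, in 13.8% of Foxp3+ cells. After thinning, the Cd4 share was higher in Foxp3+ cells in 3 of 6 mice, and Cd4 was not called in the test across mice below. The 173 Foxp3- cells with at least 6 of the 7 other genes had a median of 7642 UMIs, and 40.5% of them held a Cd4 UMI and 52.6% a CD8 UMI, so having most of the other Treg genes did not single out CD4 cells. Of the remaining 2237 Foxp3- cells, 13.5% held a Cd4 UMI and 65.3% a CD8 UMI. Among pairs of the 8 genes, thinned cells with a Tnfrsf18 UMI held Tnfrsf4 in 41.3% of cases against 13.2% of the rest, which was the largest phi coefficient of any pair, 0.26. Phi also depends on how many cells hold each gene, and 29 of 2468 cells still held a Foxp3 UMI after thinning. Those 29 cells held Il2ra in 34.5% of cases against 3.57% of the rest, at a phi of 0.17.

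In the test across mice, UMIs were summed over the Foxp3+ and the Foxp3- NK/T cells of each mouse and fitted with edgeR's quasi-likelihood test with the mouse as a block. It used the 5 mice with at least 3 Foxp3+ cells, 79 cells in all, so control 3, with 1 such cell, was dropped, and Foxp3, which chose the cells, was not tested. Of 5098 genes, 354 passed an adjusted p (Benjamini-Hochberg over all genes) of 0.05, that is 6.94%, with 176 higher (3.45%) and 178 lower (3.49%) in Foxp3+ cells; DESeq2 called 259. All 7 other Treg genes were among the higher ones, with a median log2 fold change of 2.11 against -0.05 over all genes tested. A cell in which no Foxp3 UMI was captured counts as Foxp3- whatever it expressed.

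Il2ra levels in Foxp3- cells of the 5 mice, controls 1 and 2 and stress 1 to 3, were 6.34, 42.5, 30.9, 23.9 and 39.8 CPM. In Foxp3+ cells they were 307, 408, 114, 279 and 339 CPM. No Foxp3+ value came near the Foxp3- range, and the log2 fold change was 3.20 (SE 0.23, adjusted p = 6.47e-20), the largest of the 7.

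Ikzf2 ran from 158 to 271 CPM in the Foxp3- sums of these mice and from 1576 to 2702 CPM in the Foxp3+ sums, a log2 fold change of 3.05 (SE 0.19, adjusted p = 8.82e-23). For Tnfrsf4 the Foxp3- sums were at 163, 67.5, 265, 173 and 243 CPM and the Foxp3+ sums at 798, 1094, 1098, 1019 and 1354 CPM, again without overlap (log2 fold change 2.66, SE 0.23, adjusted p = 3.42e-16). Tnfrsf18 rose by a log2 fold change of 2.11 (SE 0.20) and Ctla4 by 1.87 (SE 0.19), the latter from 383 to 592 CPM in Foxp3- sums to 1686 to 2087 CPM in Foxp3+ sums. These 5 genes were higher in 5 of 5 mice.

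Tigit and Icos, the 2 members with the smallest differences, depended more on single mice. Tigit was higher in 5 of 5 mice, at 59.4 to 128 CPM against 35.4 to 52.8 CPM, with a log2 fold change of 0.92 (SE 0.29, adjusted p = 0.0297 by edgeR). Its call was lost without control 2 (adjusted p = 0.291), stress 1 (0.0781) or stress 2 (0.104), and it passed under 6 of 13 alternatives in all. Icos was higher in 4 of 5 mice, with 184 CPM in the 4 Foxp3+ cells of control 1 against 260 CPM in its Foxp3- cells, and its log2 fold change was 0.89 (SE 0.21, adjusted p = 0.0022 by edgeR). The Icos call was lost without control 2 (adjusted p = 0.0626) or stress 2 (0.157), and among cells with a Cd4 UMI and no CD8 UMI (log2 fold change 0.40, adjusted p = 0.48).

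Of 44 other genes listed for Treg biology, 33 were tested in Foxp3+ against Foxp3- cells, of which 10 were higher, 5 lower and 18 not called, with a median log2 fold change of 0.29; over all 5098 genes, 3.45% were higher and 3.49% lower, with a median of -0.05. The 10 higher ones included effector genes: Il10, an inhibitory cytokine (3.61), Itgb8, an integrin subunit that activates latent TGF-beta (3.07), Nt5e, the ectoenzyme CD73 (1.78), and Areg, the growth factor amphiregulin (1.02). Ikzf4, which encodes the Helios relative Eos, was higher by 2.38, the chemokine receptor gene Ccr8 by 1.95, Capg by 1.37, Gata3 by 1.25, and the TNF receptor genes Tnfrsf9 and Tnfrsf1b by 1.04 and 0.67, all on the log2 scale. The 5 lower ones were Tcf7, a transcription factor gene of naive and memory T cells, by -3.63, Cd226 by -2.13, Pdcd1 (PD-1) by -1.74, Bach2 by -1.66 and Havcr2 (TIM-3) by -1.04, whereas Ccr7 (0.34), Lag3 (-0.80) and Prdm1 (0.69) were not called. A CD8 UMI was in 13.8% of Foxp3+ cells against 62.8% of all NK/T cells. For a UMI of the NK genes these shares were 13.8% and 64.1%. The part of this difference in cell types in the lower values was not tested in this fit. The IL-2 receptor chains Il2rb (-0.18) and Il2rg (0.29) and the kinase gene Jak1 (-0.45) were not called, so of the 3 IL-2 receptor chains Il2ra alone passed the test.

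**Figure D3:**
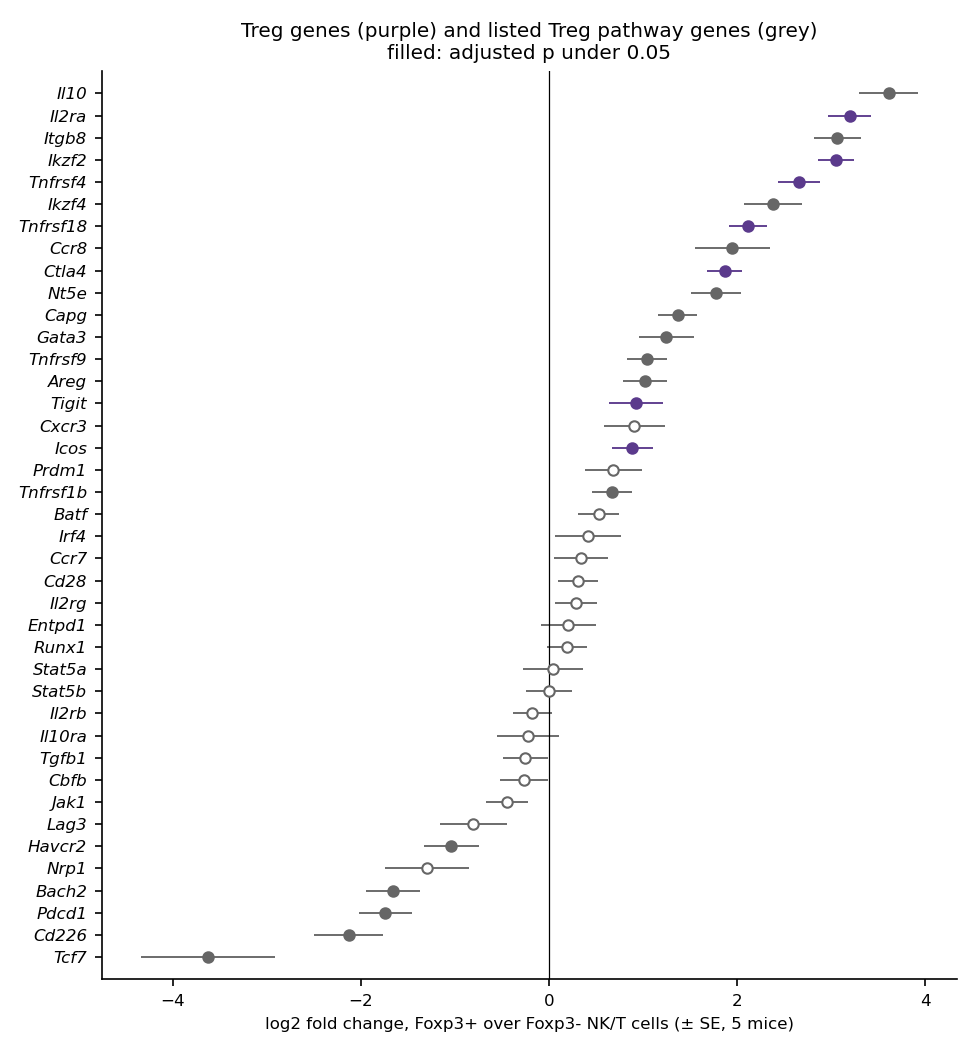
Log2 fold change (± SE) of Foxp3+ over Foxp3- NK/T cells in 5 mice for the 7 other Treg genes (purple) and 33 listed Treg pathway genes (grey); filled points passed an adjusted p of 0.05. The purple points lie between 0.89 (Icos) and 3.20 (Il2ra), all filled.

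The 15 genes with the largest rise that were higher in all 5 mice were Il10, Ighm, Il2ra, Itgb8, Ikzf2, Ass1, Izumo1r, Bmyc, Neb, Tnfrsf4, Cpm, Ccr2, Ikzf4, Slc36a3os and Maf, from 3.61 (Il10) to 2.30 (Maf), and 3 of the 7 Treg genes tested were among them. Izumo1r (2.86) encodes folate receptor 4, Ccr2 (2.43) a chemokine receptor and Maf a transcription factor that promotes Il10. Ighm, the IgM heavy chain gene of B cells, was at 202 ± 141 CPM in Foxp3+ and 13.6 ± 2.63 CPM in Foxp3- sums (n = 5), and 1.65% of all NK/T cells held a UMI of 4 B cell markers. The 5 genes with the largest drop were Xcl1, Gldc, Gzma, Klrk1 and Ifng. Cells with a UMI of CD8 or of the NK genes were rarer among Foxp3+ cells, and their part in these drops was not tested in this fit. No UMI of the chemokine gene Xcl1 was seen in the Foxp3+ cells of these 5 mice against 5757 in Foxp3- cells, at least 74.2-fold lower with a floor of 3 counts over the group, and none of Gldc against 935, at least 12.1-fold lower. Gzma (granzyme A) had 3 UMIs against 11018, Klrk1 (NKG2D) 1 against 1954 and Ifng (interferon gamma) 2 against 3392, out of 658707 UMIs in the Foxp3+ and 17035236 in the Foxp3- sums.

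The Foxp3+ cells also differed in the markers of T cell types. Cd8a (-4.66), Cd8b1 (-3.51) and the perforin gene Prf1 (-3.35) were lower, and Cd4 was not called (0.74, adjusted p = 0.133 by edgeR). Of the T cell receptor genes, Trbc1 (-1.09, adjusted p = 0.00054 by edgeR) and Trbc2 (-0.65, adjusted p = 0.0332 by edgeR) were also lower. Trac (0.41) and the CD3 genes Cd3d (-0.08), Cd3e (-0.43) and Cd3g (-0.28) were not called. Among the tumor markers, Krt18 was lower (-1.12) and Epcam and Cldn6 were not called. A further term asked whether the Foxp3+ difference depended on stress: none of 5098 genes passed (0%) in edgeR, with 100 at an unadjusted p under 0.05, and the adjusted p of all 7 Treg genes was 1. Their differences of log2 fold change, stress minus control, ranged from -0.83 (SE 0.47, Tnfrsf4) to 0.50 (SE 0.42, Ctla4), with 2 control and 3 stress mice in the fit.

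Whether stress changed the number of Foxp3+ cells was asked over mice. The Foxp3+ share of NK/T cells in control mice was 4.3%, 4.01% and 0.794%, and that in stress mice 2.97%, 2.95% and 3.11%. Stress mice lay inside the control range, and the difference of the means was -0.0218 percentage points (two-sided, exact permutation test, p = 1; the smallest p that 3 against 3 allows is 0.1). The control value that stands apart, 0.794%, rests on 1 of 126 cells (95% exact interval 0.0201 to 4.34%). Without control 3 the difference was -1.14 percentage points, and without control 1 or 2 it was 0.612 or 0.464. Median depths of NK/T cells were 2958, 3153 and 4376.5 UMIs in control and 4477, 4876.5 and 5923 UMIs in stress mice. In cells thinned to 1000 UMIs the shares were 1.09%, 2.09% and 0% in control and 0.375%, 0.746% and 1.37% in stress mice. The difference was then -0.229 percentage points (exact permutation p = 0.9).

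Per 10000 annotated cells of a tumor, Foxp3+ NK/T cells numbered 3.80, 23.0 and 1.08 in control and 11.1, 25.4 and 15.1 in stress mice. The groups overlapped, and the difference of 7.91 was not significant (exact permutation p = 0.4). It was 5.17 without control 1, 14.8 without control 2, 3.81 without control 3 and 3.80 without stress 2, and 0.463 in cells thinned to 1000 UMIs (exact permutation p = 0.9). NK/T cells, their denominator in the share above, also varied from 93 to 674 among control mice. Among NK/T cells with a Cd4 and no CD8 UMI, the Foxp3+ share was 16.7%, 10.2% and 7.14% in control and 4.17%, 6.45% and 9.09% in stress mice, over 14 to 155 cells each (difference -4.76 percentage points, exact permutation p = 0.2).

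The level of the 8 genes in NK/T cells was next compared between stress and control. None of the 8 passed the edgeR test, while 96 of 11196 genes did (0.857%, with 0.536% higher and 0.322% lower in stress); 2 of the 8, Ikzf2 and Tnfrsf4, had an unadjusted p under 0.05, as did 1469 of all genes, and DESeq2 called these 2 among 170 genes. The median log2 fold change of the 8 was 0.21, against -0.003 over all genes tested.

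Ikzf2 was at 262, 224 and 152 CPM in control and 313, 318 and 344 CPM in stress NK/T cells. Every stress mouse was above every control mouse, as for 6.8% of all genes tested. Its log2 fold change was 0.70 (SE 0.18, adjusted p = 0.1055 by edgeR, 0.0123 by DESeq2). Tnfrsf4 was at 184, 115 and 181 CPM in control and 295, 200 and 287 CPM in stress mice, again without overlap, with a log2 fold change of 0.82 (SE 0.23, adjusted p = 0.152 by edgeR, 0.0275 by DESeq2). Tnfrsf4 passed the edgeR test without stress 2 (log2 fold change 1.02, adjusted p = 0.0367). These are 2 of 8 members without overlap, against 20.1% of all genes (6.8% with stress above and 13.3% with stress below).

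The remaining 6 genes overlapped between the groups. Foxp3 was at 14.3, 9.72 and 2.32 CPM in control and 5.13, 5.99 and 8.24 CPM in stress mice. Its log2 fold change was -0.30 (SE 0.45) and ran from -0.65 to -0.05 when a mouse was left out, and it was counted from 2 to 42 UMIs per mouse. Il2ra ranged from 16.3 to 59.5 CPM in control mice, around the 31.8 to 51.6 CPM of stress mice, and its log2 fold change of 0.08 (SE 0.34) ran from -0.19 without stress 3 to 0.99 without control 2, below 0 also without control 1 or control 3 (-0.12). Tnfrsf18 (0.52, SE 0.25), Tigit (0.23, SE 0.22) and Icos (0.19, SE 0.18) had positive values. With a mouse left out, these ran from 0.22 to 0.72, from 0.07 to 0.42 and from 0.05 to 0.37, and that of Ctla4 from -0.33 to -0.02. Ctla4 was at 635, 597 and 564 CPM in control and 474, 424 and 617 CPM in stress mice, which overlapped (-0.17, SE 0.17). In cells thinned to 1000 UMIs, a Ctla4 UMI was found in 51.1%, 49.3% and 50.0% of control and 38.2%, 37.7% and 40.6% of stress NK/T cells, whereas without thinning the shares, 77.2 to 84.1% and 77.1 to 83.3%, overlapped.

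**Figure D4:**
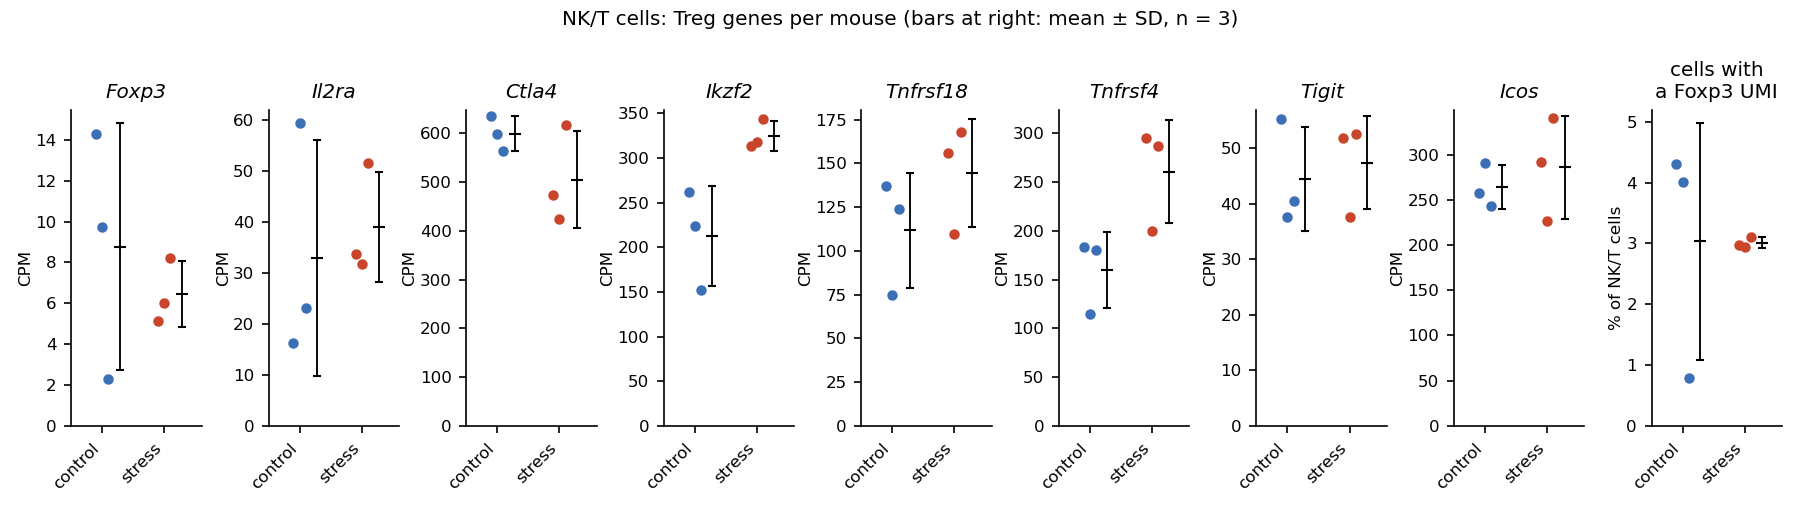
Level of each Treg gene (CPM) in the NK/T cells of each mouse and, in the last panel, the percent of NK/T cells with a Foxp3 UMI; points are mice, and bars give the mean ± SD (n = 3). Control and stress points are separate for Ikzf2 and Tnfrsf4 and overlap for the other 6 genes and for the share.

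Of the 44 other Treg genes, 43 were tested in NK/T cells, 2 rose in stress (0.536% of all genes did) and 0 fell (DESeq2 called 2 as well, among 170 of 11196 genes, and 8 had an unadjusted p under 0.05, as did 1469 of all genes). Stat5a, a transcription factor downstream of the IL-2 receptor, was at 24.5, 32.6 and 35.9 CPM in control and 66.7, 54.5 and 80.2 CPM in stress NK/T cells (log2 fold change 1.15, adjusted p = 0.0266 by edgeR). Its relative Stat5b was not called (0.51, adjusted p = 0.2). Ccr7, a receptor that guides naive T cells and mature DCs to lymph nodes, was at 32.7, 26.0 and 30.1 CPM and at 122, 57.5 and 121 CPM (1.90, adjusted p = 0.0132 by edgeR). Neither gene overlapped between the groups, as for 6.8% of all genes, with stress above control.

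Ccr7 and Stat5a each lost the call when any 1 control mouse was left out (adjusted p from 0.0619 to 0.12), and Stat5a also without stress 1 or stress 3. Ccr7 is 1 of the 5 DC markers, whose summed level in NK/T cells was 30.6 to 32.7 CPM in control and 66.0 to 136 CPM in stress mice, most of it Ccr7 itself. Of the other 4, Flt3, Xcr1 and Clec9a were at 0 to 1.70 CPM in control and 0 to 3.08 CPM in stress NK/T cells. Fscn1 was at 0, 2.19 and 2.32 CPM in control and 10.3, 6.56 and 4.85 CPM in stress NK/T cells; the part of DC transcripts in the Ccr7 difference was not tested. The 5 genes of NK/T cells with the largest differences without overlap, Gm19951 (4.16), Slc7a2 (3.54), Lars2 (3.51), H1f1 (3.38) and Cmss1 (3.26), were all higher in stress. Slc7a2, at a mean of 0.243 CPM in control mice, passed under 7 of 11 alternatives, and its value ran from 3.31 to 7.18 when a mouse was left out, the highest without control 2 (it was not tested without stress 3).

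Outside NK/T cells, 5 pairs of gene and class passed the test, 3 of them for Ctla4, which was lower in stress. The filter on low counts left 7 of the 8 members in tumor cells, 6 each in DCs and ECs, 5 in monocytes and 2 in inflammatory myeloid cells. In M-MDSCs and B cells Ctla4 was the only member tested. In tumor cells Ctla4 was at 82.8, 62.6 and 73.2 CPM in control and 26.0, 24.6 and 18.2 CPM in stress mice. Every stress mouse lay below every control mouse, as for 10.1% of all genes tested, with a log2 fold change of -1.81 (SE 0.18, adjusted p = 0.0036 by edgeR); in this class 21.4% of 18856 genes were called, and 9.46% were called lower in stress. A Ctla4 UMI was found in 67.0% of all tumor cells, and after thinning to 1000 UMIs in 5.88 to 8.52% of control and 1.43 to 2.77% of stress tumor cells. Ctla4 was the only 1 of 7 tested members that passed the main edgeR test in tumor cells. Il2ra and Tnfrsf4, at means under 1 CPM there, had adjusted p of 0.0658 and 0.0688 by edgeR. Tnfrsf4 was called in tumor cells by DESeq2, under a replicate block and without control 2. Il2ra was called under the block and without control 2, and Icos without control 2. Under the other settings tried, Ctla4 alone was called there.

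In M-MDSCs, Ctla4 was at 85.1, 70.9 and 65.4 CPM in control and 24.3, 22.1 and 17.5 CPM in stress M-MDSCs (log2 fold change -1.79, SE 0.22, adjusted p = 0.0018 by edgeR; 0.561% of genes were called, 0.254% lower, and 7.33% of all genes lay lower without overlap). This class carried the 4 tumor markers at 492 to 790 CPM, near the 605 to 897 CPM of tumor cells, and 98.3% of its Ctla4+ cells held a tumor marker against 52.4% of the others. The median depths of these cells were 32853 and 3921.5 UMIs, and any gene is found more often in deeper cells. The part of depth in these shares was not tested. In ECs Ctla4 was at 48.9, 49.2 and 37.7 CPM and at 17.9, 18.9 and 13.5 CPM (-1.46, SE 0.17, adjusted p = 0.0298 by edgeR; 0.213% were called, 0.106% lower, and 10.3% of all genes lay lower without overlap). The EC call was lost without control 1, control 3 or any 1 stress mouse (adjusted p from 0.079 to 0.138). Tumor markers were found in 45.5% of Ctla4+ and 11.6% of other ECs, at a median of 8131 and 4335 UMIs, and their part in the EC difference was not tested.

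Ctla4 was lower in stress without passing the test in DCs (-0.73, adjusted p = 0.175) and monocytes (-0.83, adjusted p = 0.216), in both with no overlap between groups (17.1% and 11.2% of all genes lay lower without overlap in these classes), and the groups overlapped in inflammatory myeloid cells (-1.39, adjusted p = 0.994), in all by edgeR. In DCs, Ctla4 was called with no filter on low counts, under a replicate block and without stress 1. In inflammatory myeloid cells no gene of 9219 was called (0%) by edgeR, with 365 at an unadjusted p under 0.05 and 6 called by DESeq2. B cells, at 87.1 to 154 CPM in control and 101 to 120 CPM in stress mice, overlapped as well (-0.08; 0.483% of genes called). Barcodes outside the annotation, 2580 over the 6 libraries, held Ctla4 at 45.7, 51.5 and 57.4 CPM in control and 17.5, 24.3 and 15.2 CPM in stress libraries.

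T cell transcripts were followed beside Ctla4. A T cell receptor or CD3 UMI was in 8.59% of tumor cells with Ctla4 and 10.2% of those without. With all cells holding such a UMI removed, an alternative added after seeing the data, the log2 fold change of Ctla4 was -1.81 in tumor cells, -1.74 in M-MDSCs and -1.87 in ECs (-1.46 with all cells), all called, and the DC value was -1.33 and was called. In a fit of both classes, also added after seeing the data, the stress difference in Ctla4 was lower in tumor cells than in NK/T cells by a log2 difference of -1.65 (adjusted p = 0.000236 by edgeR; 0.498% of genes passed), and in M-MDSCs than in NK/T cells by -1.63 (adjusted p = 0.0454 by edgeR; 0.0271% passed), while ECs minus NK/T cells did not pass (-1.26, adjusted p = 0.174; 0% passed).

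The other 2 pairs were in DCs, where Tnfrsf4 and Il2ra rose in stress. Tnfrsf4 was at 5.31, 3.13 and 12.7 CPM in control and 33.6, 29.2 and 30.7 CPM in stress DCs, with every stress mouse above every control mouse, as for 8.28% of all genes tested (log2 fold change 2.36, SE 0.39, adjusted p = 0.0095 by edgeR; 2.64% of 10533 genes were called, 2.13% higher). Il2ra was at 0, 4.86 and 5.24 CPM in control and 8.40, 18.0 and 17.8 CPM in stress DCs (2.0, SE 0.45, adjusted p = 0.0379 by edgeR), from 0 to 14 UMIs per control mouse. Tnfrsf4 was called in DCs except without stress 3 (adjusted p = 0.0522), and Il2ra lost the call without stress 2, stress 3 or any 1 control mouse (adjusted p from 0.0654 to 0.163). The Tnfrsf4 log2 fold change ran from 1.67 to 3.23 when a mouse was left out. Ikzf2 was higher without overlap (1.66, adjusted p = 0.0534 by edgeR), as was Icos (2.14, adjusted p = 0.0969 by edgeR), and Tnfrsf18 overlapped (0.21). In DCs, Ikzf2 and Icos were both called by DESeq2, with no filter on low counts and under a replicate block. Ikzf2 was also called there without control 3. Monocytes had higher values of Tnfrsf4 (2.02, adjusted p = 0.11 by edgeR) and Ikzf2 (1.86, adjusted p = 0.189 by edgeR), without overlap (6.82% of all genes lay higher without overlap). Neither passed the main edgeR test, which called 0.122% of genes. Both were called by DESeq2 and with no filter on low counts. Tnfrsf4 was also called under a replicate block, and Ikzf2 without control 2. A T cell receptor or CD3 UMI was in 63.4% of monocytes with Tnfrsf4 and 3.62% of the others, and in 26.8% of those with Ikzf2 and 3.45% of the others, and the part of T cell transcripts in these differences was not tested.

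DCs with these UMIs mostly also held markers of mature DCs, the state in which DCs move to lymph nodes. Of the 133 DCs with a Tnfrsf4 UMI, 97.0% held a UMI of Ccr7 or Fscn1, markers of mature DCs, against 33.1% of the others. For Il2ra it was 93.6% of 109 cells against 34.4%. Ccr7 and Fscn1 themselves rose in stress DCs, by 1.97 (adjusted p = 0.0021) and 1.5 (adjusted p = 0.0117), and made up most of the summed level of the 5 DC markers, which was 145 to 330 CPM in control and 639 to 787 CPM in stress mice. The other 3, Flt3, Xcr1 and Clec9a, were not called. The part of mature DCs in the difference was not tested. T cell transcripts moved the same way, at 1.77 to 39.6 CPM over 6 genes in control and 56.7 to 150 CPM in stress DCs, and were in 23.3% of DCs with Tnfrsf4 and 4.36% of those without. Without cells holding a T cell receptor or CD3 UMI, Tnfrsf4 still rose (log2 fold change 2.25, adjusted p = 0.029 by edgeR), Ikzf2 was at 1.12 and not called (adjusted p = 0.221), and Il2ra and Icos were too low to be tested.

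**Figure D5:**
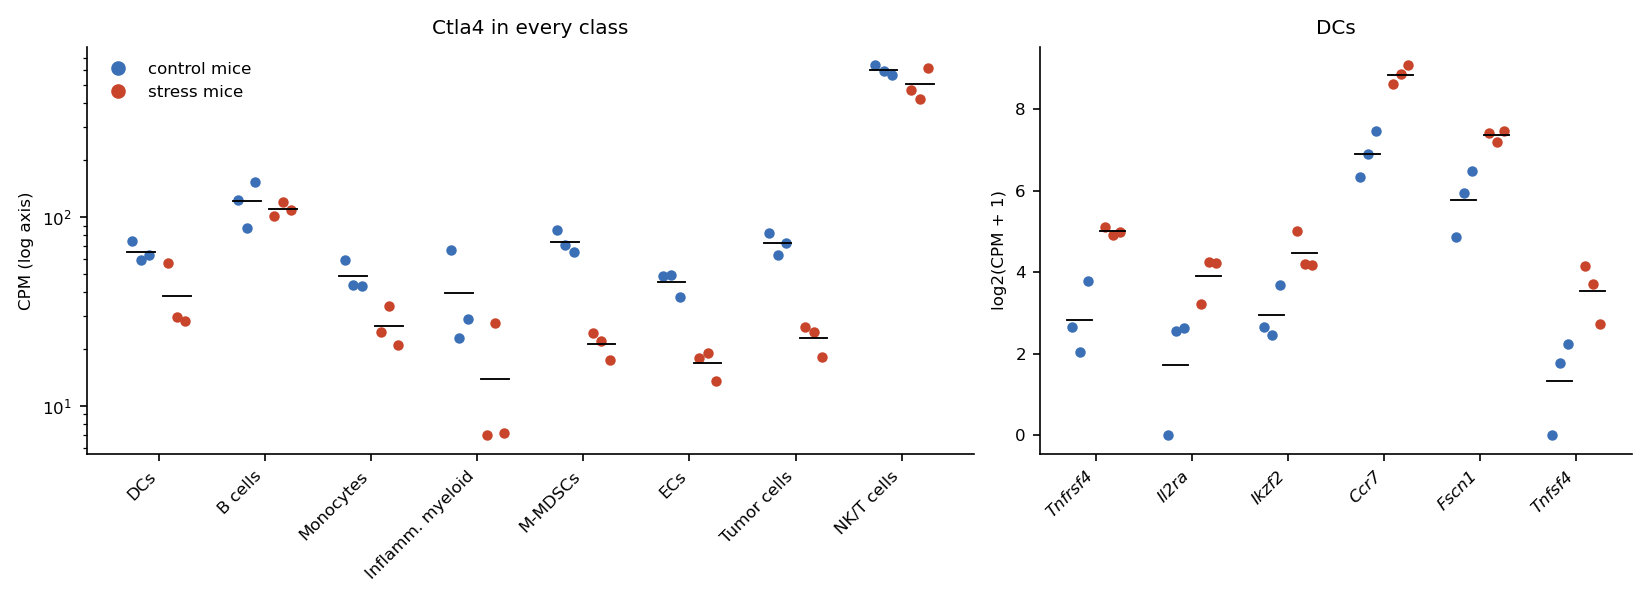
Left, Ctla4 level (CPM, log axis) in 8 classes; right, log2(CPM + 1) of Tnfrsf4, Il2ra, Ikzf2, Ccr7, Fscn1 and Tnfsf4 in DCs. Points are mice, black lines group means; Ctla4 is lower in stress in tumor cells, M-MDSCs and ECs and overlaps in NK/T and B cells, and the 6 DC genes are higher in each stress mouse than in any control mouse.

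Listed partner genes, which encode ligands of the receptors among the Treg genes, ligands of PD-1 and IL-2, were followed in DCs and monocytes. In DCs, 8 of 10 were tested and none passed (2.64% of all genes did by edgeR); 4 had an unadjusted p under 0.05, as did 1789 of all 10533 genes, and DESeq2 called 3, among 357 genes. Those 4, all higher in stress without overlap (8.28% of DC genes were), were Cd80, a ligand of CTLA4 (log2 fold change 0.87, adjusted p = 0.0636), Tnfsf4, the OX40 ligand (2.21, adjusted p = 0.0640), Cd274 (PD-L1, 0.79, adjusted p = 0.0554) and Pdcd1lg2 (PD-L2, 1.20, adjusted p = 0.0619). Cd86 (0.30), Icosl (0.22), Nectin2 (0.44) and Pvr (0.06) overlapped between the groups. In monocytes 8 were tested and none passed by edgeR, with none at an unadjusted p under 0.05 and none called by DESeq2.

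Across 57 class-by-mouse sums, the genes whose log2(CPM + 1) followed Foxp3 most closely among 14701 genes were Ccr8 (Pearson r = 0.93), Xlr4c (0.92), Xcl1 (0.92), Ccl1 (0.92) and Gm57004 (0.92). The other Treg genes ranked from 40th (Tigit, r = 0.82) to 221st (Tnfrsf18, 0.66). These sums share their libraries and the split between NK/T cells and all other classes, which every gene of NK/T cells follows. Xcl1 shows the limit of the measure: it was among the 5 genes most like Foxp3 across classes, and none of the 79 Foxp3+ cells of the 5 mice tested held a UMI of it.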

How the data were processed

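Raw UMI counts per gene and cell, 1 matrix per tumor, and an annotation table naming the cells' classes were deposited by the authors; per the file headers, the count matrices came from Cell Ranger 9.0.0 for control and 7.1.0 for stress libraries, and the submitters' processing notes also name Seurat. Counting settings and annotation release: not given in the sources used here. The study's methods state that doublets were removed, and no doublet caller was run here; an alternative left out 79 NK/T cells with more UMIs of tumor, EC, myeloid or B cell markers than of T and NK markers. Only annotated cells were used.

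UMIs were summed per mouse and class and divided by all UMIs of that sum, times 1e+06 (CPM), which does not correct for gene length. Each class was fitted with edgeR 4.0.16 (filterByExpr, TMM, quasi-likelihood test), with p-values adjusted over all genes tested and a threshold of 0.05. DESeq2 1.42.0 was an alternative. Foxp3+ cells held at least 1 Foxp3 UMI. Shares were compared by exact permutation over mice, with 95% exact (Clopper-Pearson) intervals from scipy 1.17.1. Intervals and limits of 3 counts for a count of 0 cover counting error only. Fits were also run on simulated data with a common dispersion for all genes and no differences between mice. The outcome of those runs is not given here. Motifs were searched in RefSeq windows.

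The 8 genes and all lists were chosen with earlier results of these data known. The genes named besides the listed ones were, in NK/T cells, the 5 with the largest difference among those called without overlap and, in Foxp3+ cells, the 15 with the largest rise and the 5 with the largest drop among those called and changed the same way in every mouse used. The 5 genes most like Foxp3 were those with the highest r among genes with a mean of at least 1 CPM. Other settings tried were another normalization (RLE), no filter on low counts, a replicate block, an added log2 fold change limit of 0.15, subsets of NK/T cells, thinning to 1000 UMIs per cell and leaving out each mouse.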

Additional observations from a re-analysis of the deposited data

Results flagged for a closer look

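On the log2 scale, the difference between stress and control in Ctla4 was not the same in all classes. Mean Ctla4 went from 72.9 CPM in control to 22.9 CPM in stress tumor cells, and from 73.8 to 21.3 CPM in M-MDSCs. In NK/T cells, where the groups overlapped, it went from 599 to 505 CPM, so in CPM the fall of the mean was not smaller there. The mean share of thinned NK/T cells with a Ctla4 UMI was also lower in stress, at 38.8% against 50.1% in control. In a fit of tumor and NK/T cells together, with the mouse as a block and a term for class by stress, the log2 difference in tumor cells minus that in NK/T cells was -1.65 (SE 0.22, adjusted p = 0.000236 by edgeR), where 0.498% of 18462 genes passed. The same term for M-MDSCs minus NK/T cells was -1.63 (SE 0.25, adjusted p = 0.0454 by edgeR), where 3 of 11074 genes passed (0.0271%). For ECs minus NK/T cells the difference of -1.26 did not pass (adjusted p = 0.174 by edgeR; 0% of genes passed). Tnfrsf4 in DCs minus NK/T cells, at 1.6, did not pass either (adjusted p = 0.0785 by edgeR; 0.256% of genes passed), nor did Il2ra, at 2.07 (adjusted p = 0.117 by edgeR). These fits were added after seeing the data.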

How the results depend on the processing

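No Treg gene passed in NK/T cells in the main analysis; 2, Ikzf2 and Tnfrsf4, passed with no filter on low counts, with DESeq2 and with a replicate block, and 0 to 1 when a mouse was left out. Over their 13 alternatives the adjusted p ran from 0.0018 to 0.35 for Ikzf2 and from 0.0002 to 0.374 for Tnfrsf4. The 96 called NK/T genes became 479 with no filter, 170 with DESeq2, 229 with the block and 38 (without control 1) to 125 when a mouse was left out, 40 without control 3 and 59 without stress 1. The 2 called pathway genes became 0 to 2. The 5 calls in other classes became 10 with no filter, 10 with DESeq2, 11 with the block and 2 to 8 when a mouse was left out, 3 without control 1 or stress 2, 8 without control 2 and 2 without stress 3; Ctla4 was called in tumor cells and M-MDSCs under all 12 alternatives. Of the partner genes, 4 were called with no filter, 3 with DESeq2, 4 with the block and 0 to 2 when a mouse was left out. Whether replicate numbers pair the mice was not settled: the correlations of same-numbered mice were 0.15, 0.22 and 0.08, not all over 0.1, and 5 of 6 mice correlated best with their own number, a hint from the data and not from the design.

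The 354 genes called in Foxp3+ cells became 547 with no filter, 627 in mice with at least 10 Foxp3+ cells, 219 among cells with Cd4 and no CD8 UMI, 119 after thinning, 238 with no replicate block and 258 to 469 when a mouse was left out, and 5 to 7 of the 7 Treg genes were called throughout. The Foxp3+ share difference ran from -1.14 to 0.612 points when a mouse was left out (0.464 without control 2, 0.00986 without stress 2) and was 0.00124 without cells of mixed markers, and that per 10000 cells ran from 3.80 to 14.8 and was 0.463 after thinning. Il2ra in NK/T cells ran from -0.19 to 0.99 when a mouse was left out, with -0.12 without control 1 or 3, and was -0.0016 without cells of mixed markers. Depth limits what can be said of Foxp3: 1 to 27 NK/T cells per mouse held a UMI of it.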
